A study of Mus musculus with 6 samples.

Results

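The genes of 10 secreted proteins of tissue repair and immune regulation were followed in lymphocytes of the mouse small-intestinal epithelium: Spp1, Fgl2, Areg, Fgf7, Vegfa, Vegfb, Pdgfb, Lif, Osm and Penk. The genes were chosen by symbol, each matched 1 row, and they make up 10 of the 55487 genes in the count table. RNA sequencing was done on CD45+ CD3ε+ cells of wild-type C57BL/6J mice, sorted into B220+ cells (called X cells, 3 libraries) and B220- cells (called T cells, 3 libraries). CD45 marks leukocytes, CD3ε belongs to the signalling part of the T cell receptor, and B220 is the long CD45 isoform typical of B cells. The sources used here give neither the age of the mice, nor how many were pooled, nor whether replicate libraries stem from different mice. The p-values therefore reflect only library-to-library spread, which may be technical. Library totals ranged from 11320363 to 39591312 counts. T cell genes were abundant in both groups, with Cd3e at 1361 ± 56.4 CPM (counts scaled to library size in the usual CPM unit, mean ± SD, n = 3 per group throughout) in X cells and 1214 ± 13.7 CPM in T cells. Markers of B and plasma cells summed to 37.8 to 57.6 CPM in X cells and 42.1 to 121 CPM in T cells, and 0 were called. Most of this was the B cell receptor chain Cd79b (31.7 ± 1.80 CPM in X cells, 27.4 ± 4.37 CPM in T cells) and the plasma cell gene Jchain (12.0 ± 9.67 and 48.7 ± 44.1 CPM, at 96.6 CPM in T cell replicate 3), while the B cell gene Ms4a1 had 1 count over the X cell and 2 over the T cell libraries. The helper coreceptor Cd4 stood at 7.63 ± 0.839 CPM in X cells and 177 ± 46.8 CPM in T cells, and the CD8β chain Cd8b1 at 24.5 ± 4.89 and 215 ± 64.5 CPM. Of the 10 T cell markers, Cd4, Cd8b1 and the receptor signalling chain Cd247 were called lower in X cells and Cd8a higher, the last with an edgeR adjusted p of 0.0537 without T cell replicate 3. The T cell sort held Cd4 and Cd8b1 transcripts that were scarce in the X cell sort, and in bulk samples fewer cells of a type and less RNA per cell cannot be told apart.

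Lymphocytes of the gut epithelium can act on neighbouring cells through secreted factors as well as by killing. Amphiregulin (Areg) binds the EGF receptor and keratinocyte growth factor (Fgf7) an FGF receptor of epithelial cells, and both drive epithelial growth. The VEGF and PDGF proteins act on vessels and stroma, leukaemia inhibitory factor (Lif) and oncostatin M (Osm) signal through the shared chain gp130, osteopontin (Spp1) binds integrins and CD44, Fgl2 is a fibrinogen-like protein with immunoregulatory activity, and Penk is the precursor of the enkephalins, opioid peptides that are cut out of it. The deposited gene annotation gives the term growth factor activity to 7 of the 10 (Areg, Fgf7, Lif, Osm, Pdgfb, Vegfa and Vegfb) and cytokine activity to 4 (Areg, Lif, Osm and Spp1).

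RefSeq promoters on GRCm38.p6, the assembly behind mm10, were matched for 7 of the 10 genes, namely Areg, Fgf7, Fgl2, Lif, Spp1, Vegfa and Vegfb. Those of the 3 matched genes that passed the test between the groups are shown to place their levels beside the sequence at their start sites. All 3 lie on the plus strand of chromosome 5. Each line gives the 250 bases before the RefSeq start, 5′ to 3′, at chr5:91139349-91139598 for Areg, chr5:21372423-21372672 for Fgl2 and chr5:104434861-104435110 for Spp1, and capitals mark matches to the motifs named in the next paragraph.
Areg: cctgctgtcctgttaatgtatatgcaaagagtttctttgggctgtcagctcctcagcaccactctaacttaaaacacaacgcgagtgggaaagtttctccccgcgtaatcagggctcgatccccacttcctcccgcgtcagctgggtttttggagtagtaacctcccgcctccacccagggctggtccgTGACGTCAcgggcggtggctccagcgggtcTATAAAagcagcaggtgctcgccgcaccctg
Fgl2: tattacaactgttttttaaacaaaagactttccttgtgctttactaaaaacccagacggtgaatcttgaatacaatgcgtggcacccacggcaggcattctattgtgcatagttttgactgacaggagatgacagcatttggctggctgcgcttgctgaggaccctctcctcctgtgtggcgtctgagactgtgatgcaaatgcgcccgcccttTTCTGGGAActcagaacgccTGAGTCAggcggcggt
Spp1: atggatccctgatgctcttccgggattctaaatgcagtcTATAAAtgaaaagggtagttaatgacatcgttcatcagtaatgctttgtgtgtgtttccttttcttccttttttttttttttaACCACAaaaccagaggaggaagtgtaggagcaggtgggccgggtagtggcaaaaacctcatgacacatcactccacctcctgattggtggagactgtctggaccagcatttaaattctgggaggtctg

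Motifs were searched on both strands in the 7 promoters and in all 32851 of the same length, and were chosen after the sequences had been looked at. The cyclic AMP response element TGACGTCA occurred only in the Areg promoter among the 7, at 61 to 54 bases before the start, and in 1.55% of all promoters. The letters TATAAA of a TATA box stood 31 to 26 bases before the start of Areg. The same letters stood 211 to 206 bases before that of Spp1, and 12.4% of all promoters held them at any place. An AP-1 site (TGANTCA, in 6.75% of all) lay 16 to 10 bases before the RefSeq start of Fgl2. A STAT site (TTCNNNGAA, in 7.02%) lay 36 to 28 bases before that start, and Lif also held an AP-1 site. The counted Fgl2 gene model begins earlier, at 21372642. By that model the AP-1 match lies inside the gene and the STAT match spans its first base. A RUNX site (TGTGGT, in 14.0%) lay 128 to 123 bases before the start of Spp1, on the opposite strand, and 1 was found in the Lif promoter. The marked matches overlapped in none of the 3 printed promoters. These are matches of letters and no measure of binding.

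The question of the series is how the B220+ population differs from the other CD3ε+ cells of the same epithelium. Of the 10 genes, 9 passed the filter on low counts and were tested with edgeR's quasi-likelihood test, with Benjamini-Hochberg adjustment over all 14722 genes tested. At an adjusted p under 0.05, 5 of the 9 were called, against 11.1% of all tested genes. Spp1 and Fgl2 were higher in X cells (5.58% of all tested genes were called higher), and Areg, Osm and Penk were lower (5.56% were called lower). Pdgfb, Lif, Vegfa and Vegfb were not called, and Fgf7 was not tested. The values of the 2 groups did not overlap for 7 of the 10 genes, the 5 called ones with Pdgfb and Lif, against 28.1% of the tested genes. The median log2 fold change of the 9 was 0.096, and that of all tested genes was -0.0074. With RLE scaling 5 of the 10 genes were called (11.2% of tested genes), with DESeq2 5 (12.0%), with no filter on low counts 6 (8.41%), with the replicate number as a block 6 (17.5%) and against a fold change of 1.5 only Penk (2.29%). Without X cell replicate 1, 2 or 3 there were 3 in each case (8.11%, 6.52% and 7.87%). Without T cell replicate 1 or 2 there were 5 (9.23% and 12.0%), and without T cell replicate 3 there was 1, Penk (6.74%). The genes called were not always the same. With DESeq2, and without T cell replicate 2, Pdgfb was called in place of Osm. The fit with no filter added Pdgfb, and the replicate block added Pdgfb and Lif but lost Spp1. Without any 1 X cell library, Spp1 and Osm were lost.

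**Figure D1:**
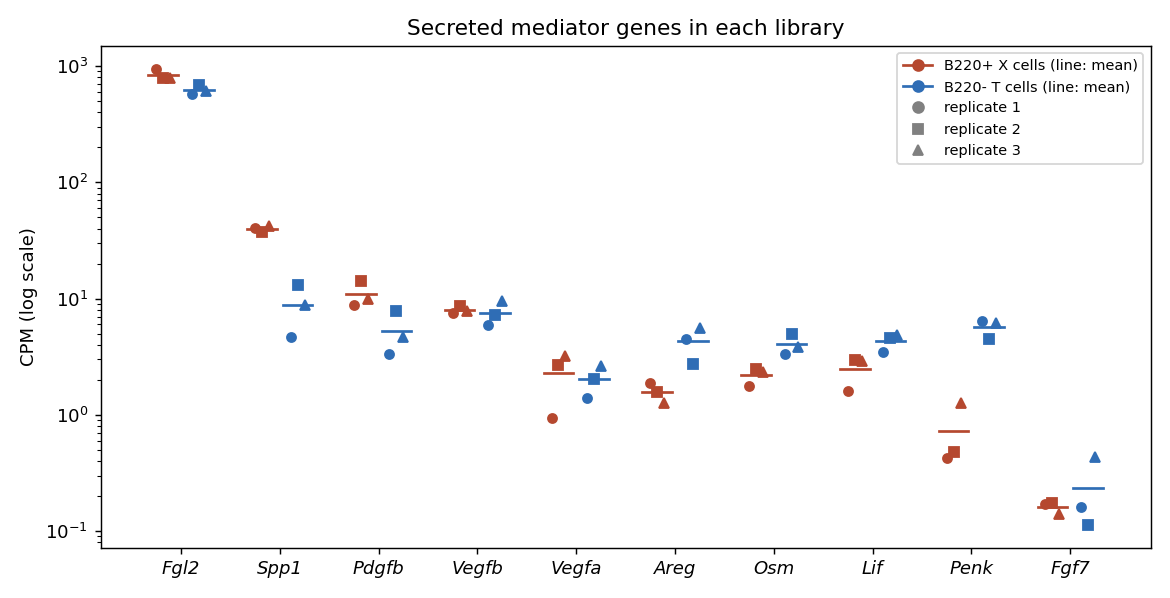
CPM of the 10 genes on a log axis in each library, with B220+ X cells left and B220- T cells right within each gene, marker shapes for the replicate number and a line at the mean of 3. Spp1 lies between 37.6 and 41.7 CPM in X cells and between 4.69 and 13.0 CPM in T cells, and Penk between 0.424 and 1.27 CPM in X cells and between 4.48 and 6.46 CPM in T cells.

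Spp1 (ENSMUSG00000029304, mm10 chromosome 5, 104435118 to 104441050, plus strand) encodes osteopontin, a secreted phosphoprotein of bone and of activated immune cells. It had 40.4, 37.6 and 41.7 CPM in X cell replicates 1, 2 and 3, against 4.69, 13.0 and 8.74 CPM in T cell replicates 1, 2 and 3. The X cell libraries lay close together, with the highest 1.11 times the lowest, and the T cell libraries were spread 2.78-fold, all below every X cell library. The log2 fold change was 2.18 (SE 0.35), or 4.53-fold, with an edgeR adjusted p of 0.0196. By replicate number the ratio of X to T cells was 8.62, 2.89 and 4.77. The call was lost with the replicate number as a block (edgeR adjusted p = 0.0894), and without X cell replicate 1, 2 or 3 or T cell replicate 3 (0.0669 to 0.0901), while DESeq2 gave 2.22e-06. A gene model without coding annotation on the same strand, Gm42793, shares 309 exonic bases with Spp1 and had 35 counts over all libraries, beside 2978 for Spp1. Macrophages are a well-known source of osteopontin. In the list of macrophage and dendritic cell genes, 0 of 5 tested were called higher and 1 lower, which was Lyz2 (5.58% and 5.56% of all tested genes). The summed level of its 12 genes ranged from 22.8 to 23.3 CPM in X cells and from 26.9 to 29.2 CPM in T cells. The macrophage complement genes C1qa, C1qb and C1qc had 2, 1 and 0 counts over the X cell libraries and 8, 11 and 6 over the T cell libraries.

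Of 6 tested receptor chains of osteopontin, 1 was called higher and 2 lower (5.58% and 5.56% of all tested genes). Those not called were Itgb1 (edgeR adjusted p = 0.805), Itgb3 (0.397) and Itgb5 (0.0720). Its integrin chain Itgav rose to 123 ± 9.33 CPM in X cells, against 82.9 ± 7.65 CPM in T cells (log2 fold change 0.57, edgeR adjusted p = 7.87e-04). The integrin chain Itga4, which serves in homing as well, fell to 115 ± 3.53 CPM in X cells, against 215 ± 18.1 CPM in T cells (-0.90, edgeR adjusted p = 1.05e-05). CD44, an adhesion receptor of activated lymphocytes, fell likewise, with Cd44 at 57.0 ± 5.95 CPM in X cells and 104 ± 17.97 CPM in T cells (-0.87, edgeR adjusted p = 0.00173). These 3 calls held without each library in turn.

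Fgl2 (ENSMUSG00000039899, mm10 chromosome 5, 21372642 to 21378374, plus strand) was by far the most expressed of the 10 genes. It took at least 91.7% of their summed CPM in each X cell library and at least 92.9% in each T cell library. Levels were 949, 788 and 793 CPM in X cell replicates 1, 2 and 3, against 572, 684 and 609 CPM in T cell replicates 1, 2 and 3. The groups did not overlap, the lowest X cell library being replicate 2 and the highest T cell library also replicate 2. The log2 fold change of 0.44 (SE 0.092, 1.36-fold) had an edgeR adjusted p of 0.00751, or 0.0528 without T cell replicate 3. Of 8 fibrinogen-related secreted genes, Fgl1, Fga, Fgb and Fgg had no count in any library. Of the 2 tested, 1 was called: Angptl2, an angiopoietin-like protein, fell to 0.205 ± 0.137 CPM in X cells, against 3.17 ± 1.02 CPM in T cells (log2 fold change -3.94, edgeR adjusted p = 1.66e-04). Fcgr2b, an inhibitory Fc receptor that binds Fgl2, had 13 counts over the X cell and 4 over the T cell libraries.

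Areg (ENSMUSG00000029378, mm10 chromosome 5, 91139599 to 91148432, plus strand) fell. It had 1.87, 1.59 and 1.27 CPM in X cell replicates 1, 2 and 3, against 4.53, 2.72 and 5.60 CPM in T cell replicates 1, 2 and 3. All X cell libraries were below the lowest T cell library, replicate 2. The log2 fold change was -1.43 (SE 0.31), on 103 counts over the X cell and 196 over the T cell libraries, with an edgeR adjusted p of 0.00915, or 0.0524 without T cell replicate 3. The other EGF family ligands did not pass: of 10, 3 were tested and 0 called. Among them Nrg4, named after its values were seen, stood at 11.6 ± 0.973 CPM in X cells and 10.6 ± 1.11 CPM in T cells, and Hbegf at 1.66 ± 0.903 and 2.89 ± 0.468 CPM. The EGF receptor gene Egfr had 1 count over the X cell and 2 over the T cell libraries. Its relative Erbb3 was higher in X cells (11.1 ± 0.594 against 7.92 ± 0.519 CPM in T cells, edgeR adjusted p = 0.0412). This call was lost with DESeq2 (0.0723) and without any 1 library other than T cell replicate 1 (0.0913 to 0.116). Membrane-bound Areg is released by the protease Adam17, which stood at 75.0 ± 2.99 CPM in X cells and 78.9 ± 5.14 CPM in T cells and was not called (edgeR adjusted p = 0.650). The inactive rhomboid proteins that control Adam17 went opposite ways. Rhbdf2 fell to 21.0 ± 0.979 CPM in X cells, against 29.8 ± 1.62 CPM in T cells (edgeR adjusted p = 0.00346). Rhbdf1 was higher at 12.3 ± 1.12 CPM in X cells, against 8.15 ± 1.24 CPM in T cells (edgeR adjusted p = 0.0220), a call lost without X cell replicate 2 or 3 or T cell replicate 1 (0.0628 to 0.125).

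Penk (ENSMUSG00000045573, mm10 chromosome 4, 4133531 to 4138819, minus strand) had the largest log2 fold change of the 9 tested genes. Levels were 0.424, 0.478 and 1.27 CPM in X cell replicates 1, 2 and 3, against 6.46, 4.48 and 6.21 CPM in T cell replicates 1, 2 and 3. Every X cell library was far below every T cell library, and X cell replicate 3 was the highest of its group. The log2 fold change was -3.05 (SE 0.37), which is 8.26-fold lower. The edgeR adjusted p was 1.91e-04, stayed under 0.05 without each library in turn (7.80e-05 to 0.00274) and was 7.10e-04 when tested against a fold change of 1.5. The counts were 42 over the X cell and 270 over the T cell libraries, a depth-corrected ratio of 0.113 (95% exact counting interval 0.0796 to 0.157, which covers counting error only). A noncoding gene on the opposite strand, A830012C17Rik, shares 233 exonic bases with Penk and had 10 counts over the X cell and 51 over the T cell libraries. Whether reads were counted by strand is not given in the sources used here, so reads of this pair cannot be told apart.

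Enkephalin is cut from its precursor by prohormone convertases and trimmed by carboxypeptidases. The neuroendocrine convertases were almost absent, Pcsk1 with 0 counts over the X cell and 2 over the T cell libraries and Pcsk2 with 0 in all. Carboxypeptidase E (Cpe), named after its values were seen, had 0 counts in each X cell library and 33, 37 and 3 counts in T cell replicates 1, 2 and 3. With the T cell counts pooled and set against a floor of 3 counts over the X cell group, Cpe was at least 33.5-fold lower in X cells. This bound rests mainly on T cell replicates 1 and 2 and does not hold for replicate 3 by itself. Cpe was below the filter on low counts and so not tested in the main fit. The related Cpd fell to 129 ± 13.1 CPM in X cells, against 177 ± 12.1 CPM in T cells (edgeR adjusted p = 0.00313). Of the other opioid precursors, Pomc was tested and not called (1.54 ± 0.332 CPM in X cells and 1.46 ± 0.211 CPM in T cells, with an edgeR adjusted p of 0.927), and Pdyn had no count. The μ-opioid receptor gene Oprm1 stood at 7.82 ± 2.34 CPM in X cells and 8.81 ± 1.09 CPM in T cells, with an edgeR adjusted p of 0.775.

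Osm and Lif lie next to each other on the plus strand of mm10 chromosome 11, Osm (ENSMUSG00000058755) at 4236420 to 4241026 and Lif (ENSMUSG00000034394) at 4257557 to 4272514, with 16530 bases between them. Osm had 1.78, 2.49 and 2.33 CPM in X cell replicates 1, 2 and 3, against 3.34, 4.99 and 3.85 CPM in T cell replicates 1, 2 and 3. Lif had 1.61, 2.97 and 2.90 CPM in X cell replicates 1, 2 and 3, against 3.45, 4.59 and 4.90 CPM in T cell replicates 1, 2 and 3. For both genes every X cell library was below every T cell library. Osm fell, with a log2 fold change of -0.86 (SE 0.25) and an edgeR adjusted p of 0.0480. This call was lost with DESeq2 (0.0660) and without any 1 library other than T cell replicate 1 (0.0994 to 0.173). Lif, at -0.74 (SE 0.27), did not pass (edgeR adjusted p = 0.107), but did with the replicate block (0.0204). By replicate number the ratio of X to T cells was 0.468, 0.647 and 0.592 for Lif, and for Osm the T cell level was 1.65 to 2.00 times the X cell level. Among 10 other ligands of the interleukin-6 family 1 was tested, Clcf1, and it was not called (76.4 ± 7.49 CPM in X cells and 73.4 ± 7.77 CPM in T cells, edgeR adjusted p = 0.783). The signalling chain gp130, encoded by Il6st, rose to 190.2 ± 16.9 CPM in X cells, against 117 ± 13.9 CPM in T cells (log2 fold change 0.71, edgeR adjusted p = 3.79e-04). The partner chains that LIF and oncostatin M need were near 0, with Lifr at 1 and 2 counts and Osmr at 0 and 2 counts over the X and T cell libraries.

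Of the vessel and stroma factors, none was called in the main edgeR fit. Pdgfb (ENSMUSG00000000489, mm10 chromosome 15, 79995874 to 80014977, minus strand) had 8.82, 14.3 and 9.83 CPM in X cell replicates 1, 2 and 3, against 3.34, 7.76 and 4.63 CPM in T cell replicates 1, 2 and 3. Replicate 2 was the highest library of each group, and the groups did not overlap. The log2 fold change was 1.08 (SE 0.32), or 2.12-fold, with an edgeR adjusted p of 0.0722. It passed with the replicate block (8.25e-05), with DESeq2 (0.00185), with no filter on low counts (1.16e-07) and without T cell replicate 2 (0.00129), and by replicate number X cells had 2.64, 1.84 and 2.12 times the T cell level. Its receptor gene Pdgfrb fell to 0.213 ± 0.100 CPM in X cells, against 1.64 ± 0.579 CPM in T cells (edgeR adjusted p = 0.00288), on 17 and 74 counts.

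Vegfa (ENSMUSG00000023951, mm10 chromosome 17, 46016993 to 46032369, minus strand) had 0.933, 2.69 and 3.18 CPM in X cell replicates 1, 2 and 3, against 1.40, 2.04 and 2.62 CPM in T cell replicates 1, 2 and 3. The groups overlapped, and X cell replicate 1 was the lowest of the 6 libraries (log2 fold change 0.23, SE 0.40, edgeR adjusted p = 0.813). Vegfb (ENSMUSG00000024962, mm10 chromosome 19, 6982473 to 6987651, minus strand) overlapped too, at 7.55, 8.56 and 7.78 CPM in X cell replicates 1, 2 and 3, against 5.93, 7.25 and 9.53 CPM in T cell replicates 1, 2 and 3 (0.096, SE 0.18, edgeR adjusted p = 0.833). None of the 6 other VEGF and PDGF ligands found in the table reached the filter on low counts. Of the VEGF receptors, Kdr had no count and Flt1 had 10 counts over the X cell and 7 over the T cell libraries. The coreceptor Nrp2 rose to 50.5 ± 5.11 CPM in X cells, against 34.1 ± 4.62 CPM in T cells (log2 fold change 0.56, edgeR adjusted p = 0.00458).

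Vegfa is a classic target of hypoxia signalling. Of 12 listed hypoxia genes 11 were tested, with 1 called higher and 3 lower (5.58% and 5.56% of all tested genes). Slc2a1 (edgeR adjusted p = 0.875), Ldha (0.894), Pgk1 (0.317), Ndrg1 (0.211), Ankrd37 (0.414), Hif1an (0.888) and Egln1 (0.531) were not called. Whether the hypoxia response differed between the groups was not tested. Hif1a, the oxygen-regulated transcription factor, fell to 88.5 ± 5.12 CPM in X cells, against 117 ± 13.9 CPM in T cells (edgeR adjusted p = 0.00986, or 0.0516 without X cell replicate 3). Egln3, an oxygen-sensing prolyl hydroxylase, fell to 2.44 ± 0.953 CPM in X cells, against 8.42 ± 1.74 CPM in T cells (edgeR adjusted p = 7.66e-04). The factor gene Epas1 was lower (1.01 ± 0.132 CPM in X cells, 2.34 ± 0.327 CPM in T cells) and the mitophagy gene Bnip3 higher (11.8 ± 1.36 and 7.72 ± 1.37 CPM), at edgeR adjusted p of 0.0246 and 0.0286. Both calls were lost without X cell replicate 2 or 3 or T cell replicate 1 or 3 (0.0529 to 0.128 for Epas1, 0.0799 to 0.115 for Bnip3).

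Fgf7 (ENSMUSG00000027208, mm10 chromosome 2, 126034658 to 126091185, plus strand) was near the limit of detection. It had 2, 7 and 2 counts in X cell replicates 1, 2 and 3, against 3, 2 and 5 counts in T cell replicates 1, 2 and 3. The depth-corrected ratio of X to T cells was 0.799, with a 95% exact counting interval from 0.308 to 2.097, so a difference was not detectable at this depth. Of 21 other FGF ligands 3 were tested, 0 were called and 10 had no count in any library. Fgfr2, the gene of the receptor for Fgf7, had 2 counts over the X cell and 4 over the T cell libraries.

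**Figure D2:**
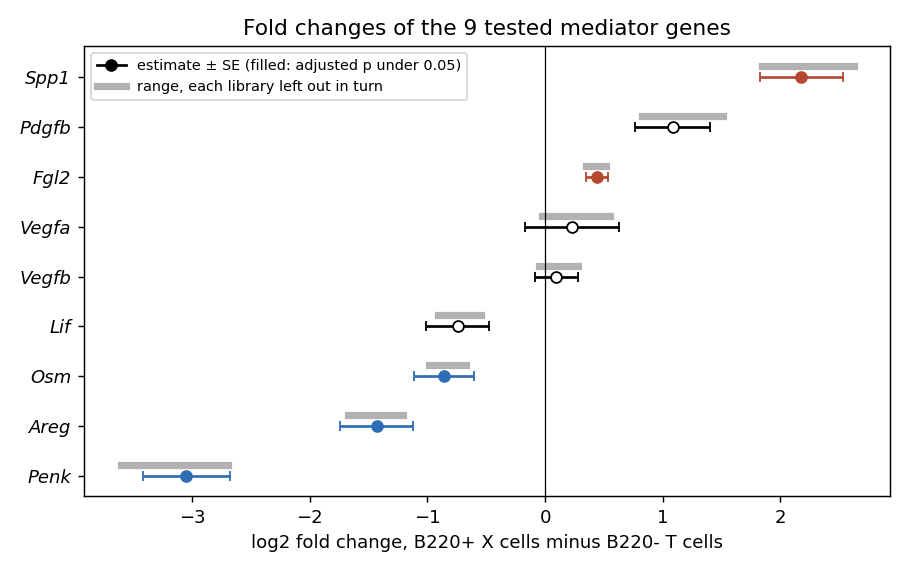
Log2 fold change of the 9 tested genes, B220+ X cells minus B220- T cells, with SE bars, filled where the edgeR adjusted p was under 0.05, and grey bars for the range when each library was left out in turn. Penk (-3.05) and Spp1 (2.18) lie farthest from 0, and the grey bars of Vegfa and Vegfb cross 0.

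Levels of different genes were compared as CPM per kilobase of exon. In X cells Fgl2 led at 223 ± 24.1, Spp1 followed at 24.2 ± 1.26, then Vegfb at 4.96 ± 0.330 and Pdgfb at 2.64 ± 0.701, and none of these overlapped its neighbour in the order. Areg (1.297 ± 0.244) and Osm (0.970 ± 0.164) overlapped, as did Lif (0.573 ± 0.176), Vegfa (0.530 ± 0.276) and Penk (0.444 ± 0.291), and Fgf7 was lowest. In T cells Fgl2 again led at 164 ± 15.1. There Spp1 (5.35 ± 2.53), Vegfb (4.72 ± 1.14), Areg (3.52 ± 1.20) and Penk (3.50 ± 0.662) formed a run in which each overlapped its neighbour, and Penk did not overlap Osm, the next below. Osm (1.79 ± 0.371), Pdgfb (1.26 ± 0.547) and Lif (0.991 ± 0.175) formed the next overlapping run, followed by Vegfa (0.472 ± 0.143) and Fgf7. Spp1 thus stood clear of Vegfb in X cells and overlapped it in T cells. Penk stood level with Areg in T cells and below it in X cells.

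**Figure D3:**
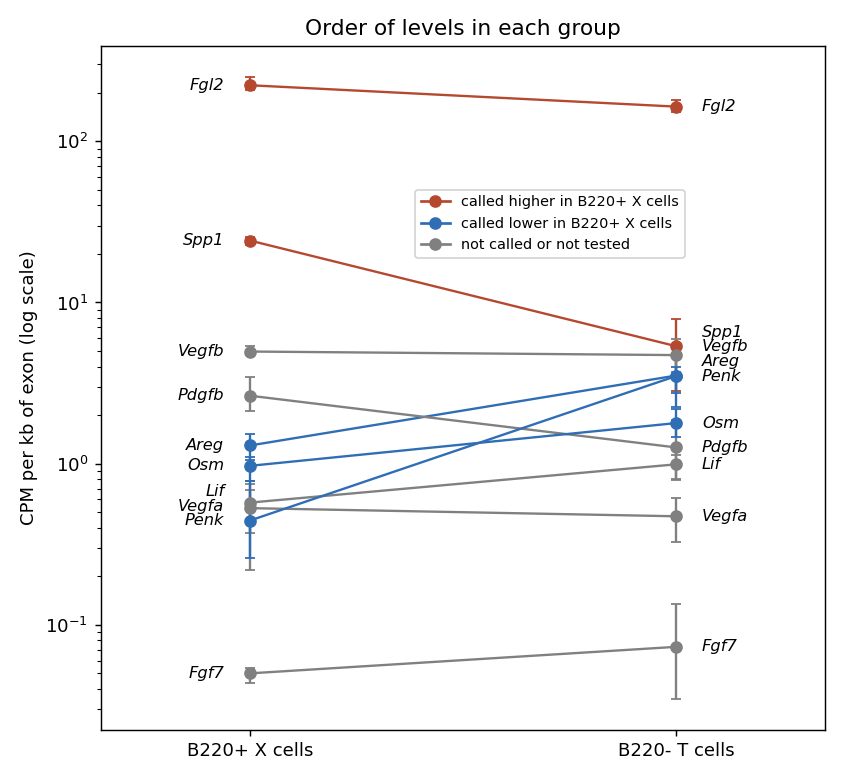
Mean CPM per kilobase of exon on a log axis for each gene, B220+ X cells left and B220- T cells right, with bars from the lowest to the highest of 3 libraries. Fgl2 leads both groups (223 and 164), and Penk lies at 0.444 in X cells and 3.50 in T cells, crossing other lines.

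Across the 134 listed receptors, family members, processing enzymes, other repair mediators and hypoxia genes, 52 were tested, with 7 called higher and 11 lower, and their median log2 fold change was -0.068. Of all tested genes 5.58% were called higher and 5.56% lower, and the counts of this paragraph are to be read beside these shares. Among the receptors 12 of 28 were tested, with 4 called higher and 3 lower. Among the shedding and processing enzymes 8 of 15 were tested, with 1 called higher and 2 lower, and Furin, a convertase that activates many growth factors, stood at 576 ± 6.37 CPM in X cells and 619 ± 18.3 CPM in T cells and was not called (edgeR adjusted p = 0.395). Among 20 other secreted repair mediators 11 were tested, with 1 called higher and 2 lower. Lgals3, the galectin-3 gene, rose to 121 ± 9.80 CPM in X cells, against 66.1 ± 11.3 CPM in T cells (log2 fold change 0.87, edgeR adjusted p = 0.00104). Lgals9, the galectin-9 gene, was lower (109 ± 5.09 CPM in X cells, 133 ± 10.9 CPM in T cells, edgeR adjusted p = 0.0284), and lost the call without X cell replicate 1 or 2 or T cell replicate 1 (0.0923 to 0.111). Il22, a cytokine of epithelial defence, fell, with 2 counts over the X cell and 394 over the T cell libraries. Il10, an anti-inflammatory cytokine named after its values were seen, stood at 2.16 ± 1.73 CPM in X cells and 14.5 ± 6.49 CPM in T cells and missed the threshold (edgeR adjusted p = 0.0528).

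**Figure D4:**
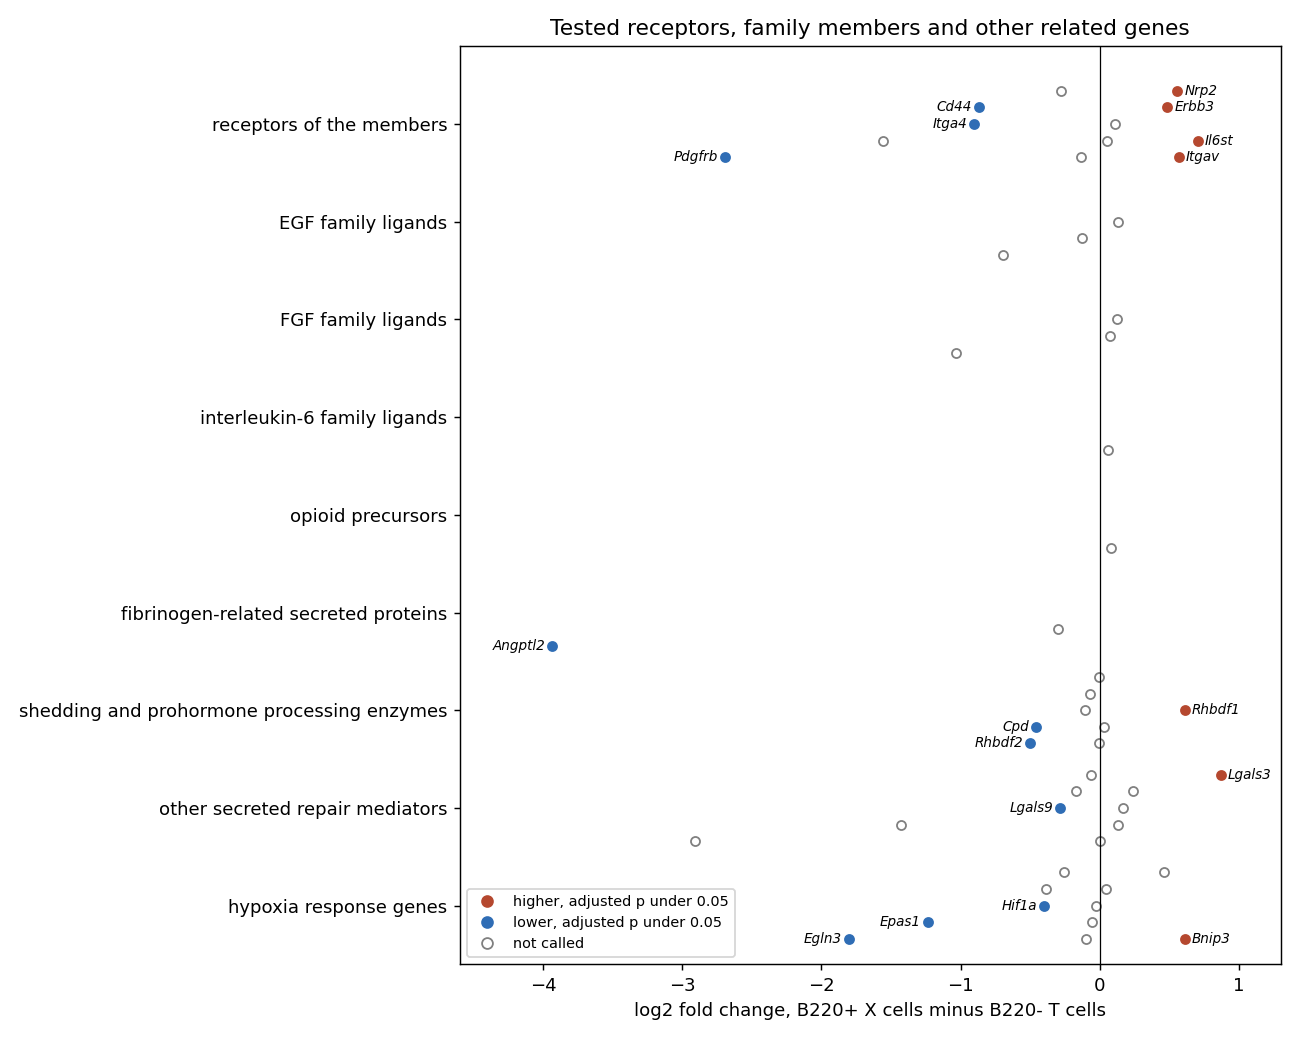
Log2 fold change, B220+ X cells minus B220- T cells, of the tested genes of each list of related genes, 1 circle per gene, red for called higher, blue for called lower and open for not called, with height within a list for legibility only. Il22 is left out because X cells had 2 counts, and none of the circles in the rows of EGF, FGF, interleukin-6 family and opioid genes is filled.

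Markers of other T cell subsets and cell types went in both directions. Regulatory T cells are known to make Areg and Penk, and of 4 markers of that subset Foxp3 (6.65 ± 1.055 CPM in X cells, 13.4 ± 0.387 CPM in T cells), Il2ra (2.16 ± 0.460 and 10.8 ± 3.17 CPM) and Ctla4 (114 ± 12.6 and 272 ± 77.1 CPM) were lower, and Ikzf2 (550.4 ± 14.3 and 276 ± 32.7 CPM) was higher. The edgeR adjusted p was 7.47e-04 for Foxp3, 6.20e-05 for Il2ra, 1.27e-05 for Ikzf2 and 0.0333 for Ctla4, which lost its call without any 1 X cell library or T cell replicate 3 (0.0946 to 0.114) and with no filter on low counts (0.0821). The summed level of the 4, most of it Ikzf2 and Ctla4, ranged from 656 to 694 CPM in X cells and from 521 to 614 CPM in T cells. Among markers of innate lymphoid and NK cells, Eomes was lower (3.20 ± 0.887 CPM in X cells, 7.56 ± 1.51 CPM in T cells) and Klrb1c was higher (22.1 ± 1.08 and 10.4 ± 1.59 CPM). The summed level of that list ranged from 78.1 to 85.6 CPM in X cells and from 79.1 to 94.5 CPM in T cells. Mast cells can make Areg, Osm and Vegfa; the mast cell protease gene Mcpt1 was lower (0.518 ± 0.237 CPM in X cells, 5.60 ± 3.79 CPM in T cells, edgeR adjusted p = 0.0104, and 0.0593 and 0.0594 without X cell replicate 1 and 2), the summed level of the 6 mast cell markers ranged from 202 to 317 CPM in X cells and from 50.5 to 109 CPM in T cells, most of it Kit, and without Kit it ranged from 3.99 to 4.81 CPM and from 5.71 to 16.8 CPM. Of the other mast cell markers, Mcpt2 was not tested, with 16 counts over the X cell and 85 over the T cell libraries. Its level was 0.275 ± 0.0693 CPM in X cells and 1.96 ± 1.29 CPM in T cells, without overlap. Cpa3 was not called (3.59 ± 0.525 CPM in X cells, 3.78 ± 1.21 CPM in T cells, edgeR adjusted p = 0.935). Fcer1a had 3 counts over the X cell and 2 over the T cell libraries, and Ms4a2 had 0 and 1. The part of these subsets in the results was not tested.

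Of 10 epithelial markers 9 were tested and 0 called. Their summed level ranged from 80.9 to 99.2 CPM in X cells and from 37.7 to 67.4 CPM in T cells, most of it Epcam, which did not pass (75.4 ± 6.20 and 35.9 ± 14.7 CPM, edgeR adjusted p = 0.170). Without Epcam the ranges were 12.2 to 22.8 CPM in X cells and 17.7 to 25.1 CPM in T cells. Platelets are a known source of Pdgfb, and of 5 platelet markers 2 were tested and 0 called. Itga2b stood at 2.04 ± 0.355 CPM in X cells and 2.44 ± 0.432 CPM in T cells, and Gp1ba at 1.63 ± 0.405 and 1.37 ± 0.505 CPM. Ppbp and Gp9 had no count, Pf4 had 0 counts over the X cell and 1 over the T cell libraries, and the summed level ranged from 3.14 to 4.10 CPM in X cells and from 3.50 to 4.42 CPM in T cells. The 6 stroma markers summed to 2.41 to 4.51 CPM in X cells and 2.21 to 3.00 CPM in T cells, and the endothelial genes Cdh5 and Kdr had 8 and 0 counts over the X cell and 1 and 0 over the T cell libraries.

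The genes with the most similar profile to each called gene were found by the root-mean-square difference of mean-centred log2 CPM over the 6 libraries, which includes the difference between the groups. For Spp1 they were Tmprss6 (difference 0.100), Rnf180 (0.143) and Dnm3 (0.149), and Tmprss6 had 28.8, 24.4 and 27.3 CPM in X cell replicates 1, 2 and 3, against 2.91, 7.59 and 6.21 CPM in T cell replicates 1, 2 and 3. For Fgl2 they were Gm31887, Acoxl and Pheta2 (0.0446 to 0.0463). For Areg they were Rasl12, Bik and Hid1 (0.152 to 0.195), for Osm Gm18852, Hs3st3b1 and Deptor (0.0314 to 0.0897), and for Penk Sema4a, Slamf1 and Gm7457 (0.215 to 0.249).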

How the data were processed

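The authors deposited raw counts of reads for every gene in 6 libraries. The build mm10 and the tools HISAT2 2.1.0, featureCounts 1.6.3, SAMtools 1.9, Trimmomatic 0.38 and FastQC 0.11.7 are named, per the submitters' processing notes. The sources used here do not state tool options, strand setting, treatment of shared reads or annotation version. Of 55141 gene models matched by identifier, 99.4% have the coordinates of GENCODE M21, from which exonic lengths were taken. RNA was total RNA in directional libraries, per the labels' protocols.

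Counts were tested with edgeR 4.0.16 in R 4.3.3: trimmed-mean (TMM) scaling, genes kept by filterByExpr at a count of at least 10 and a total of at least 15, the quasi-likelihood F test of a robust fit with group as the only term, and Benjamini-Hochberg adjustment over 14722 genes. Fold changes are X minus T cells. The SE is the fold change divided by the square root of F. CPM uses the scaled library sizes, and the scaling factors ranged from 0.990 to 1.01. Floors are 3 counts, intervals 95% exact, and both cover counting error only.

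The replicate numbers were taken to pair the libraries in the replicate block and in the ratios by replicate number, and the main test did not use them. They were taken so because, over 14722 genes, same-numbered libraries deviated together from their group means (correlations 0.295, 0.246 and 0.272). The labels do not state this pairing. Libraries of 1 group differed by more than counting noise, with a chi-square of 7.38 to 16.5 for each degree of freedom. Alternatives were DESeq2 1.42.0, RLE scaling, no filter, the replicate block, a fold change of 1.5 as the null, and leaving out each library.

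The 10 genes, gene lists and tests were chosen with earlier results of these data known. Named were all 10 genes, up to 6 called genes per list with the largest fold change, the 3 most expressed tested receptors, and the 3 nearest profiles of each called gene. Others, including family members, receptors and processing enzymes outside this rule, were named after their values were seen. Some marker genes are not reported here.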

Additional observations from a re-analysis of the deposited data

How the results depend on the processing

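Of the 10 genes, 5 were called by edgeR, 5 with RLE scaling, 5 with DESeq2, 6 with no filter on low counts, 6 with the replicate block and 1 against a fold change of 1.5; leaving out 1 library gave 1 to 5. Of the 5 called by edgeR, Penk was called in every one of these fits. Equal counts did not always mean the same genes: DESeq2 called Pdgfb and not Osm, and the replicate block did not call Spp1. Over all genes 1639 were called, 2569 with the replicate block and 337 against a fold change of 1.5, with 970 to 1789 when 1 library was left out. Of the related genes 18 were called, 5 against a fold change of 1.5 and 14 to 18 when 1 library was left out. Vegfa changed sign without X cell replicate 3 (log2 fold change -0.025) and Vegfb without T cell replicate 1 (-0.050), with ranges up to 0.55 and 0.28 when 1 library was left out; the cause was not tested. Among 46 other named genes under 11 alternatives, 67 of 506 values lost the call, 1 gained it and 0 changed sign. Nearly all of the 46 were named because they were called, and only Gm18852 and Deptor could gain a call. Genes named outside the rule, such as Il10 and Furin, are not in this count. Besides Spp1, Pdgfb and Lif, the replicate block changed 2 calls of named genes, Dnm3 (adjusted p 0.128) and Deptor (0.0220). Depth limits Fgf7 and the receptors with few counts.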
